A study of Mus musculus with 6 samples.

Results

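Among 41864 distal regions of open chromatin in mouse NIH/3T3 fibroblasts, 559 had a higher signal in cells given a guide RNA against Actg1 than in cells given a guide against GFP. A distal region is here a region to which the deposited table of 63430 regions assigns no gene. The 559 were chosen by the values themselves: the mean of the Actg1 guide libraries was at least 30, and log2 of the ratio of the group means, each with 1 added, was at least 1.5. They are called opened regions below. Their difference between the groups is the rule that chose them and is given as a description.

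Open chromatin was mapped by ATAC-seq, where a transposase, Tn5, inserts adapters preferentially into DNA free of nucleosomes. NIH/3T3 cells descend from mouse embryo fibroblasts, and both groups carried the same knock-in of Cas13d, a CRISPR nuclease directed by its guide to RNA. The GFP guide libraries (replicates 1, 2 and 3) came from cells transfected with a guide against GFP, the control, and the Actg1 guide libraries (replicates 1, 2 and 3) from cells transfected with a guide against the mRNA of Actg1, which encodes cytoplasmic gamma-actin. The study asks what mRNA degradation contributes to transcriptional adaptation, a response in which the decay of a transcript goes along with increased transcription of genes similar to it. The labels do not say whether the knock-in line is a single clone, and the Actg1 guide titles name 1 guide only. ATAC-seq does not measure Actg1 mRNA, so these values do not check the knockdown.

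Regions of open chromatin away from gene starts include enhancers, which bind transcription factors and act on promoters over a distance, insulators bound by CTCF, and starts of unannotated transcripts. Enhancers are more specific to cell type and state than promoters are. Accessibility alone does not tell these classes apart, and it does not name the gene that a region acts on. The nearest gene is therefore given below as a landmark.

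Signal is the authors' normalized read count per region, rounded to whole numbers. The libraries held an estimated 5675555 to 9525005 reads in regions. Replicates 1 and 2 of the GFP guide agreed within sampling noise (chi-square per region 0.991, against 1.04 to 1.12 for the other within-group pairs), and they entered the limma fit as their mean. They may be 1 library deposited as 2. The rule's group means and the per-library counts below take them as separate libraries. Of 10 fibroblast marker genes, 9 had a promoter region, with summed signals of 3456 to 3533 in the GFP guide and 3143 to 3271 in the Actg1 guide libraries. Thy1 had no promoter region in the table. Of the blood markers 0 of 4 and of the endothelial markers 0 of 3 had one, while Krt8 (1 of 4 epithelial markers) and Tubb3 (1 of 3 neuronal markers) did. A higher signal can come from more cells in which a region is open or from wider opening in each cell, and the data do not tell these apart.

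Sequence was at hand for the opened regions that touch a RefSeq promoter window, which spans 250 bases before to 50 bases after an annotated start (GRCm38.p6, the assembly of mm10). Of the 541 opened regions on chromosomes with such windows, 2 (0.37%) touched one, against 643 of 23876 (2.69%) other distal regions with an Actg1 guide mean of at least 30. These 2 are shown because they are the opened regions that touch such a window. Both starts belong to genes that RefSeq lists by a number only. The region at chr2:145361829-145362873 lies within Slc24a3, which encodes a sodium/calcium exchanger that also carries potassium, and covers 289 bases of the Gm52528 window. The region at chr5:116406640-116406860 lies 1.74 kb from Hspb8, which encodes a small heat shock protein, and covers 90 bases of the Gm36841 window. Each is printed 5′ to 3′ on the strand of the named transcript, and capitals mark the motif letters found in it.

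Gm52528, minus strand, chr2:145361829-145362117: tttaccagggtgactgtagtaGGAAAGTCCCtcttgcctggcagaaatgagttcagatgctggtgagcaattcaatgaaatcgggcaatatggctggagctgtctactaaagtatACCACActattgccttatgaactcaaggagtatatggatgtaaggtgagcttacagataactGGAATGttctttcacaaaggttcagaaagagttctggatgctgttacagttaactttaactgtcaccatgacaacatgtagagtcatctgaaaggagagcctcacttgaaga
Gm36841, plus strand, chr5:116406640-116406729: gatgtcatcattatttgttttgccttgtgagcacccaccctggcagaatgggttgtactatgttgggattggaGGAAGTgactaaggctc

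The letters searched on both strands were TGANTCA (AP-1), GGAATG (TEAD), TGTGGT (RUNX), CAGCTG (an E-box), GGAAGT (ETS), GGGCGG (SP/KLF), TGACGTCA (CREB) and longer letters for NF-kB and CTCF. The Gm52528 stretch held those of TEAD, RUNX and NF-kB, which are held by 14.2%, 16.1% and 20.1% of all promoter windows over the same 289 bases. The Gm36841 stretch held those of ETS, held by 9.70% of windows over the same 90 bases. G and C made up 41.9% of the Gm52528 stretch, where the median of the windows was 52.6%, and 46.7% of the Gm36841 stretch, where it was 55.6%. These matches describe letters and do not show that a factor binds. The Slc24a3 region had signals of 98, 90 and 95 with the GFP guide and of 275, 293 and 298 with the Actg1 guide. The Hspb8 region was far weaker, at 16, 11 and 7 against 36, 34 and 36. The groups did not overlap in either region, as in all 559, which the rule chose by the same values.

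The opened regions were mostly weak in control cells, which the rule favours because the GFP guide mean enters its ratio. Their median signal was 14, 14 and 15 in GFP guide replicates 1, 2 and 3, below the median of all distal regions, 39, 39 and 40. It was 51, 53 and 50 in Actg1 guide replicates 1, 2 and 3, where all distal regions had 40, 41 and 41. In 443 of the 559 every GFP guide library lay under 30, and in 35 every one lay under 10. None had a GFP guide library at 0, though values went down to 1, and no background level was estimated. The opened regions held 0.317% of the distal signal in the GFP guide means and 1.12% in the Actg1 guide means. The signals of the opened regions given here are those that the rule used. Distal regions chosen by the mirrored rule, with the groups exchanged, had medians of 15, 14 and 15 in Actg1 guide replicates 1, 2 and 3.

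**Figure D1:**
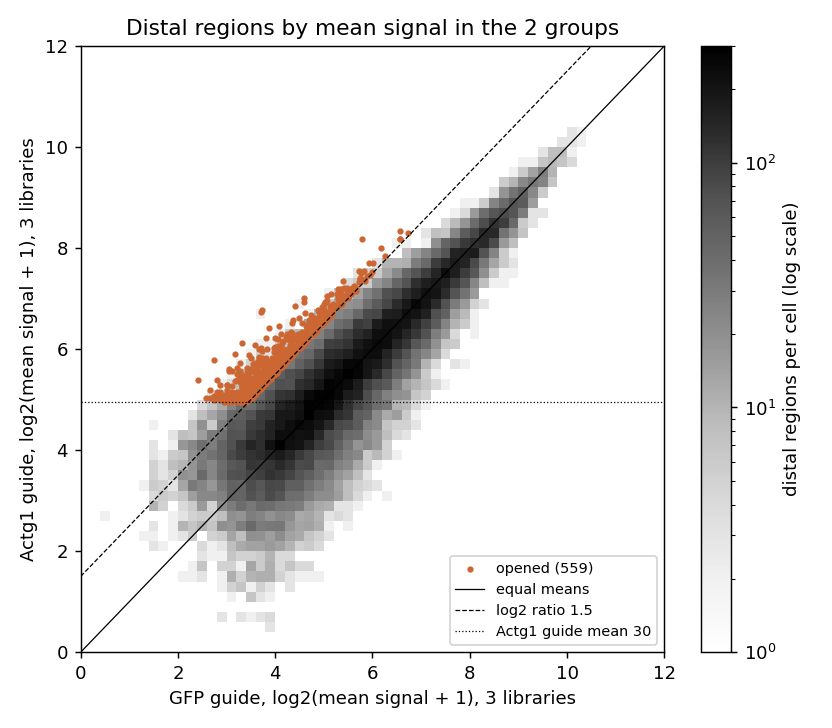
Mean signal of distal regions with the GFP guide (x axis) and the Actg1 guide (y axis), both as log2(mean signal + 1) over 3 libraries. Grey cells count all 41864 distal regions on a log scale, orange points are the 559 opened regions, and the lines mark equal means and the limits of the rule; the orange points crowd along the limits, at a median log2 ratio of 1.71.

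The ratio of means, without the added 1, ran from 2.87-fold to 9.53-fold with a median of 3.43-fold. The log2 ratio had a median of 1.71, and it reached 2 in 94 regions and 2.5 in 12. Most members therefore lay close to the limit. Just inside it, the region at chr1:170008575-170008783 in Ddr2, which encodes a collagen receptor, had 19, 13 and 18 with the GFP guide and 42, 41 and 64 with the Actg1 guide (log2 ratio 1.5009). Just outside it, the region at chr13:35507196-35507463 with Cdyl as its nearest gene had 16, 13 and 14 against 44, 34 and 49 (log2 ratio 1.4988). At the limit on signal, the region at chr6:146197922-146198247 in Itpr2, which encodes an inositol trisphosphate receptor, had 10, 9 and 8 against 37, 32 and 21. The region at chr11:97855577-97855797 near Fbxo47 had 8, 9 and 4 against 33, 31 and 25 and stayed outside with a mean of 29.7.

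All 559 had every Actg1 guide library above every GFP guide library, as did 25.2% of all 61327 tested regions, and limma called all 559 higher, as it did 22.1% of the tested distal regions and 20.6% of all tested regions (41.3% in either direction). The rule used the same values, so these counts follow from the choice. All 559 also passed the filter on low values (3 or more libraries at 10 or above), which their Actg1 guide libraries alone could meet. Within the Actg1 guide group the coefficient of variation had a median of 11.8%, and it passed 30% in 20 members. The most uneven was the region at chr15:36044258-36044545 in Rgs22, with 22, 57 and 17 in the Actg1 guide libraries and 7, 5 and 11 in the GFP guide libraries. The highest of the Actg1 guide libraries was replicate 2 in 237 members, replicate 1 in 170 and replicate 3 in 152. GFP guide replicate 3 was the highest of its group in 249 members, replicate 1 in 184 and replicate 2 in 126.

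When regions were chosen by the same rule from 2 libraries of each group and read in the libraries left out, the difference held its direction and was smaller. Over the 9 ways to leave out 1 library of each group, 529 to 716 regions were chosen. In the libraries left out, 99.6% to 100% of them were higher with the Actg1 guide. Of the 41305 distal regions that had not opened, 49.1% were above 0 in the means of 3 libraries. The libraries left out belong to the same contrast, so these values are a description. The median log2 ratio was 1.70 to 1.75 in the libraries that chose and 1.40 to 1.67 in those left out. At least 1 on the log2 scale was kept by 81.4% to 92.3%, and at least 1.5 by 42.6% to 63.1%. The lowest values came when GFP guide replicate 3 was left out. Where GFP guide replicate 1 or 2 was left out, the other of the pair that agreed within sampling noise stayed among the libraries that chose.

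Of the opened regions, 78 reached a mean of 100 with the Actg1 guide and 9 reached 200. The strongest, at chr13:92336812-92337306 in Msh3, a DNA mismatch repair gene, had 91, 93 and 99 with the GFP guide and 349, 322 and 296 with the Actg1 guide. The next, at chr6:114939529-114940052 in Vgll4, which encodes a cofactor that binds TEAD transcription factors, had 104, 100 and 111 against 303, 312 and 321. Both were well above the usual level in control cells already, and their ratios, 3.42-fold and 2.97-fold, lay near or below the median of the group. The region at chr16:31557329-31558141, 60.4 kb from Gm536, stood apart in this respect, with 52, 59 and 51 against 280, 292 and 289, which is 5.31-fold.

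Further strong members lay far from any coding gene. The region at chr5:101250379-101251112 had 78, 96 and 108 against 295, 296 and 278 and lay 352 kb from Gpat3, which encodes an acyltransferase of glycerolipid synthesis. The region at chr6:49987359-49988151 had 67, 70 and 78 against 245, 243 and 273 and lay 122 kb from Mpp6, which encodes a membrane scaffold protein. The region at chr14:105664871-105665203, 227 kb from Spry2, an inhibitor of receptor tyrosine kinase signalling, had 52, 72 and 67 against 215, 165 and 245. Its 3 Actg1 guide libraries were the most spread of the 10 strongest. The others of the 10 lay 5.77 kb from Ciao2a, a gene of iron-sulfur protein assembly (73, 80 and 75 against 228, 224 and 236), in 4930503B20Rik (66, 48 and 65 against 202, 214 and 203), in Tmem71 (58, 49 and 61 against 174, 187 and 195) and in Slc24a3. In each of the 10, as in all 559, the lowest Actg1 guide library was above the highest GFP guide library, which follows from the choice.

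**Figure D2:**
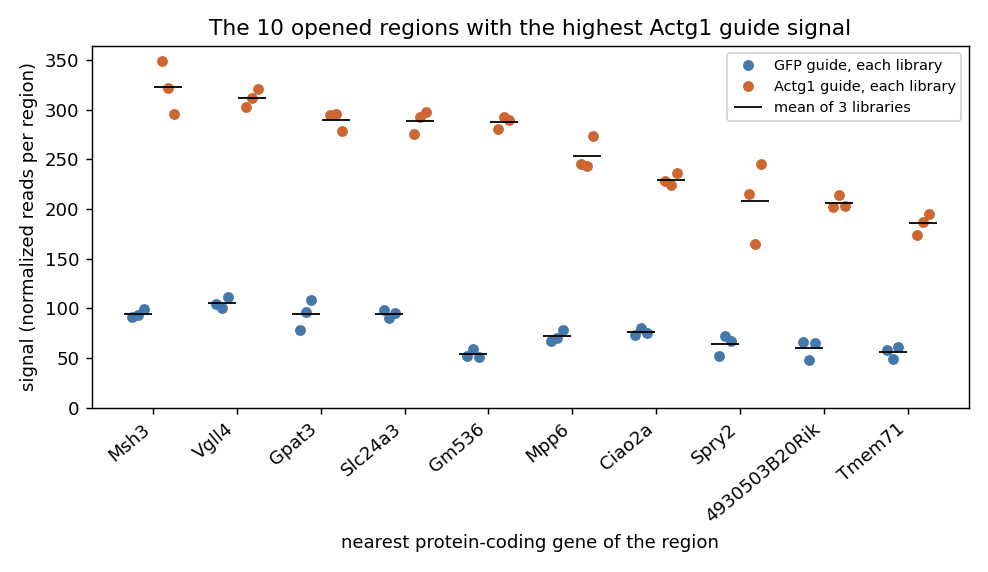
Signal per library of the 10 opened regions with the highest mean with the Actg1 guide, named on the x axis by the nearest protein-coding gene; the y axis is signal in normalized reads per region, points are libraries and bars are means of 3. The Actg1 guide points sit between 165 and 349 and the GFP guide points between 48 and 111.

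Not all promoters of the genes nearest to these regions moved as the regions did. The Msh3 promoter (chr13:92354463-92355452) was lower with the Actg1 guide, at 914, 938 and 1023 against 841, 848 and 837 (log2 fold change -0.21, SE 0.0494, limma adjusted p = 0.000653). The Spry2 promoter, at 696, 748 and 718 against 638, 637 and 664, was lower as well (log2 fold change -0.16, limma adjusted p = 0.0179). That of Mpp6 was higher, at 276, 264 and 265 against 316, 295 and 326 (0.22, limma adjusted p = 0.0215), and that of 4930503B20Rik too, as given below. The promoters of Vgll4, Gpat3, Slc24a3 and Ciao2a had log2 fold changes of 0.13, -0.04, -0.08 and -0.07 and did not pass (limma adjusted p = 0.113 to 0.714). No promoter region is given for Gm536 and Tmem71. Changes at the other 8 promoters thus ran both ways. They were smaller than those of the regions they are nearest to, which the rule chose for a log2 ratio of at least 1.5. The promoters were not chosen by their change, so this difference in size follows largely from the choice.

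The length of opened regions had a median of 302 bp, with quartiles of 232 and 413 bp, near the 309 bp of all distal regions, against 431 bp for the 24714 other distal regions with an Actg1 guide mean of at least 30 and 359 bp for the 703 regions that closed, chosen by the mirrored rule. Length grew with signal in both sets. At a mean of 30 to 50 the median length was 246 bp in 273 opened and 300 bp in 7228 other distal regions. At 50 to 100 it was 345.5 bp in 208 and 406 bp in 7954, and from 100 on it was 490 bp in 78 and 593.5 bp in 9532. The opened regions were the shorter in each range, where by the rule their GFP guide signal was also lower. At a like mean over both groups they were not shorter: the median was 243 bp in 245 opened and 213 bp in 10140 other distal regions at 15 to 30, 314 and 304 bp at 30 to 50, 420 and 411 bp at 50 to 100, and 626 and 600 bp from 100 on. The widest, of 1113 bp, was at chr11:48699049-48700161, 100.8 kb from Rack1, which encodes a ribosomal scaffold protein, with 35, 21 and 36 against 121, 73 and 97. The others of the 5 widest were the Slc24a3 region (1045 bp), a region 13.5 kb from Kcnn3, a potassium channel gene (967 bp), 1 near the zinc finger gene Zfp260 (913 bp) and 1 near Ccdc71l (882 bp).

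The opened regions lay more often outside coding genes than other distal regions did. The bounds of a protein-coding gene held 234 of the 559 (41.9%), against 50.0% of the other distal regions of at least 30, 49.8% of all distal regions and 56.3% of the closed regions. The gene table gives bounds only, so exons and introns were not told apart. At means of 30 to 50, 50 to 100 and from 100 on, the share in a gene body was 44.3%, 38.5% and 42.3% among opened and 49.2%, 49.4% and 51.1% among other distal regions. Opened regions outside genes had a median distance of 41.8 kb to the nearest one, against 32.9 kb for the other distal regions. More than 100 kb from any coding gene lay 105 (18.8%), against 12.5% of the other distal and 11.8% of the closed regions. The most remote, at chr2:47074285-47074575, lay 1740 kb from Acvr2a, which encodes an activin receptor, with 12, 13 and 13 against 51, 57 and 54. A long non-coding gene alone covered 48 opened regions (8.59%), a share near that of other distal regions (8.63%). Within 10 kb of a microRNA hairpin lay 0 of 541 opened regions and 0.607% of the other distal regions on the same chromosomes.

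No gene collected many of these regions. They fell into the bodies of 218 protein-coding genes, of which 202 held 1 and 16 held 2. Among the 8 such genes with the highest summed signal was Ip6k1, which encodes an inositol hexakisphosphate kinase, with regions at chr9:108010255-108010880 (60, 53 and 69 against 181, 191 and 159) and chr9:108035524-108035822 (14, 6 and 12 against 39, 50 and 36). Nav2, a neuron navigator gene, held regions at chr7:49475069-49475584 (27, 30 and 26 against 70, 99 and 76) and chr7:49562364-49562978 (45, 44 and 50 against 144, 138 and 124). In Tmcc3 the region at chr10:94443488-94443824 went from 9, 8 and 7 to 69, 64 and 43, which is 7.33-fold, and a second, at chr10:94554177-94554385, had 15, 14 and 24 against 54, 47 and 59. The other 5 were 4930503B20Rik, Efcc1, Macrod2, Capn13 and Dlgap1, each with a pair of regions that lay close together.

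Opened regions occurred on every chromosome in the table. Over all chromosomes they made up 2.21% of the 25273 distal regions with an Actg1 guide mean of at least 30. The share was highest on chromosome 17, with 43 of 1200 (3.58%), followed by chromosome 6 with 45 of 1531 (2.94%). It was lowest on chromosome X, with 9 of 668 (1.35%), and on chromosome 7, with 15 of 1094 (1.37%). Chromosome 11, which carries Actg1, had 20 of 1416 (1.41%). The remaining regions of chromosomes 17, 6 and X had median log2 ratios of 0.04, -0.01 and -0.10, and those of all chromosomes had -0.0053.

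**Figure D3:**
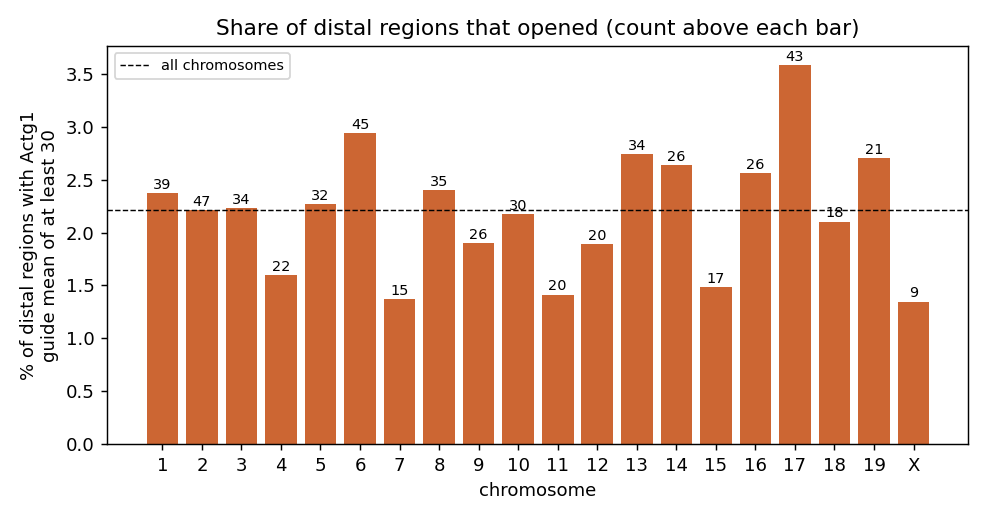
Opened regions as a percentage of the distal regions with an Actg1 guide mean of at least 30, by chromosome, with the number of opened regions above each bar and the value over all chromosomes, 2.21%, as a dashed line. Chromosome 17 is the highest at 3.58% and chromosome X the lowest at 1.35%.

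In windows of 5 Mb the most opened regions, 8, lay between 70 and 75 Mb of chromosome 17, among 140 distal regions of at least 30. They lay in or near Dlgap1, Lpin2, Emilin2, Capn13 and Ehd3, with means of 9 to 30 in the GFP guide and 38 to 93 in the Actg1 guide. The strongest of them, at chr17:71193007-71193274 in Lpin2, which encodes a phosphatidate phosphatase, had 35, 30 and 25 against 83, 107 and 89. Between 15 and 20 Mb of the same chromosome lay 7 among 54, in or near Dll1, Prdm9, Rgmb and Lnpep. Both windows hold pairs of opened regions that are next to each other.

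Most opened regions stood alone. With neighbours joined when their centres lay at most 25 kb apart, 519 of the 559 had no other opened region beside them, and the remaining 40 formed 20 pairs. No run was longer than 2. An opened region within 25 kb was found for 7.16% of the opened and for 2.25% of the other distal regions of at least 30. A closed region within 25 kb was found for 9 opened regions (1.61%) and for 4.38% of the other distal regions. The median distance from an opened region to the nearest region of any kind was 7.12 kb, against 6.86 kb for closed regions, 6.19 kb for all distal regions and 5.39 kb for the other distal regions of at least 30.

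The pairs were compact. Their centres lay 0.925 to 19.9 kb apart, 8 of the 20 under 2.5 kb, and in 16 pairs no other region of the table lay between them. The pair with the highest summed signal was at chr17:15298734-15300154, 67 to 68 kb from Dll1, which encodes a ligand of Notch receptors. Its regions had 45, 40 and 45 against 152, 157 and 134, and 49, 37 and 39 against 136, 146 and 159, nearly the same level. A pair near Spcs3, which encodes a subunit of the signal peptidase complex (chr8:54449866-54451199), had 38, 23 and 37 against 128, 119 and 122, and 14, 16 and 15 against 65, 72 and 85. A pair 27.5 and 29.0 kb from Hoxc13, a homeobox gene (chr15:102892020-102893733), had 33, 22 and 30 against 94, 100 and 95, and 23, 22 and 26 against 84, 61 and 67. In each of these pairs both regions kept the groups apart, as all 559 opened regions did by their choice. The Spcs3 promoter, in contrast, fell from 529, 570 and 571 to 437, 429 and 422 (log2 fold change -0.38, SE 0.0628, limma adjusted p = 3.57e-06), and the promoters of Dll1 and Bcas2 did not pass (0.22 and 0.02, limma adjusted p = 0.537 and 0.909). The pair in Dlgap1, which encodes a synaptic scaffold protein, went at chr17:70414176-70414587 from 8, 5 and 14 to 61, 65 and 80 (7.63-fold) and at chr17:70415256-70415531 from 11, 8 and 11 to 38, 41 and 44 (4.10-fold). The others of the 8 pairs with the highest summed signal lay near Spry2, Bcas2 and Trpm3 and in 4930503B20Rik and Efcc1.

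Distal regions around the opened ones leaned the same way without meeting the rule. Within 1 kb lay 46 such neighbours, with a median log2 ratio of 0.94, of which 41 were above 0. Between 1 and 2 kb the median was 0.29 (69 neighbours), between 2 and 5 kb 0.32 (131), between 5 and 10 kb 0.26 (193) and between 10 and 25 kb 0.15 (434). It was 0.06 between 50 and 100 kb, where 54.3% of 1336 neighbours were above 0. Over all 41305 distal regions that had not opened the median was -0.0026 and 49.1% were above 0. Around other distal regions of at least 30 the median within 1 kb was 0.07, and around closed regions it was -0.76. These neighbours come from the same libraries and the same contrast as the rule, and no test was made.

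**Figure D4:**
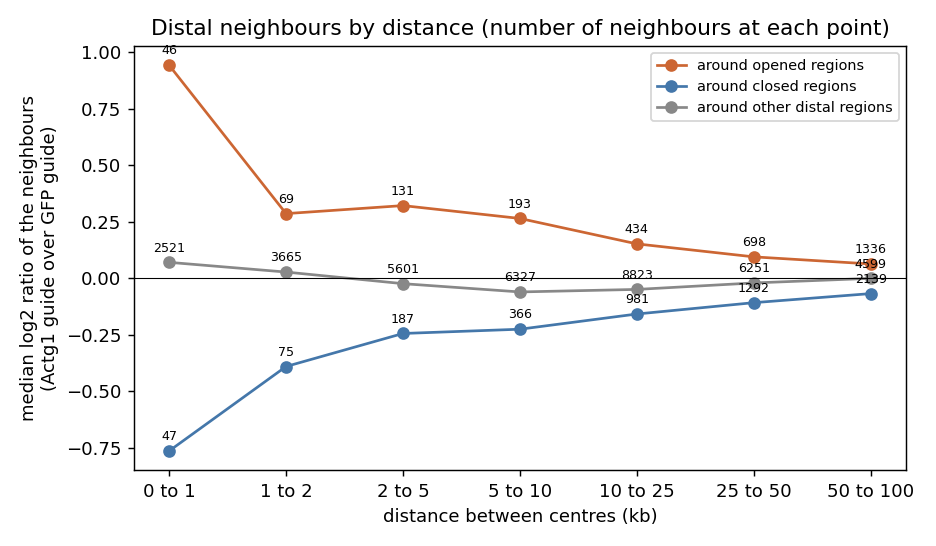
Median log2 ratio (Actg1 guide over GFP guide) of distal regions by their distance in kb from the nearest opened region (orange), closed region (blue) or other distal region with an Actg1 guide mean of at least 30 (grey); numbers give the neighbours at each point and members of the opened or closed set are left out around their own set. The orange line falls from 0.94 within 1 kb to 0.06 at 50 to 100 kb, and the blue line mirrors it.

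Promoter regions close to opened regions were called higher more often than promoters in general, and this faded with distance. A promoter region is one whose centre lies within 1 kb of the start of its assigned gene, and 11650 were tested, of which 14% were higher and 18.7% lower (limma, adjusted p under 0.05). Within 10 kb of an opened region lay 47, of which 15 were higher (31.9%) and 8 lower (17.0%). Within 25 kb it was 34 of 158 higher (21.5%) and 28 lower (17.7%), and within 50 kb 60 of 324 higher (18.5%) and 51 lower (15.7%). Near other distal regions of at least 30, 16.5% of promoters within 10 kb and 14.7% within 50 kb were higher. Near closed regions 9.62% of 52 promoters within 10 kb were higher and 28.8% lower. The median log2 fold change was -0.0026 within 10 kb and -0.01 within 50 kb, against -0.02 over all promoter regions, with promoters called in both directions. In either direction 23 of the 47 within 10 kb were called (48.9%), against 32.7% of all promoter regions. Promoter signal was alike, with a median of 247.5 within 10 kb and 245 over all. Without GFP guide replicate 3, 33 promoters were higher and 14 lower within 50 kb (8.64% and 3.66%, against 5.22% and 5.36% of all promoters), and within 10 kb 6 of 56 were higher (10.7%). Leaving out any 1 of the other libraries gave 24.4% to 30.8% higher within 10 kb, against 10.1% to 14.0% of all promoters. These shares rest on 11 to 14 higher promoters among 39 to 47.

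**Figure D5:**
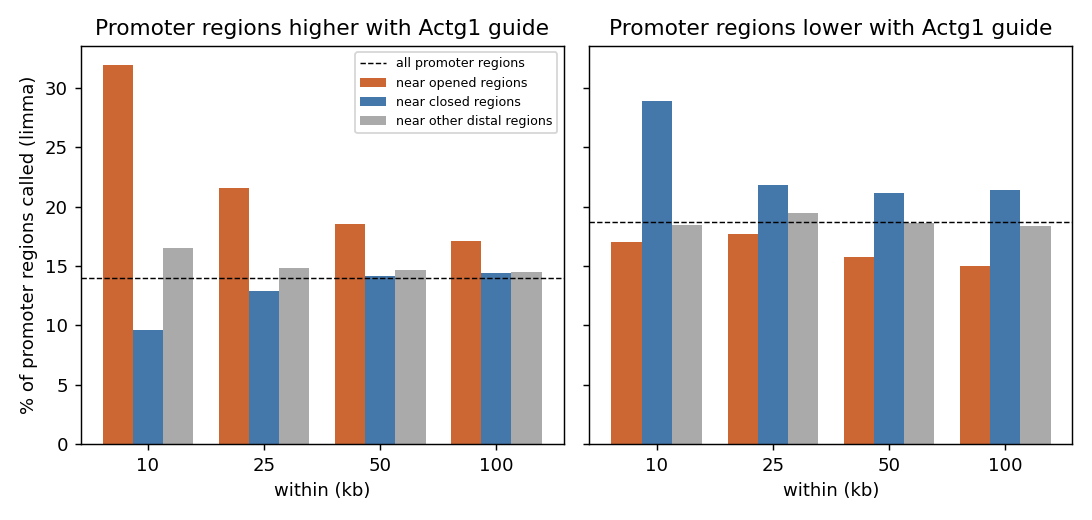
Percentage of promoter regions that limma called higher (left) or lower (right) with the Actg1 guide, by distance in kb to the nearest opened region (orange), closed region (blue) or other distal region with an Actg1 guide mean of at least 30 (grey); each distance includes the shorter ones and the dashed line is the share over all 11650 promoter regions. Near opened regions the share higher falls from 31.9% within 10 kb to 17.1% within 100 kb.

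The promoters within 10 kb that rose included genes of several kinds. That of Nppb, which encodes the B-type natriuretic peptide (chr4:147985341-147985909), rose from 87, 88 and 112 to 188, 185 and 163 (log2 fold change 0.84, SE 0.116, limma adjusted p = 1.31e-07). The opened region 9.91 kb away, at chr4:147995407-147995655, had 20, 16 and 29 against 69, 68 and 68 and lay 5.19 kb from Nppa, the gene of the related atrial peptide. Every Actg1 guide library was above every GFP guide library at both places, as in 25.2% of all tested regions. At the opened region this follows from the choice. The promoter of 4930503B20Rik (chr3:146651224-146651682) rose from 62, 40 and 66 to 106, 104 and 87 (log2 fold change 0.76, SE 0.149, limma adjusted p = 6.56e-05). The gene also holds a pair of opened regions, the nearer 6.18 kb from the promoter. Here the region at the promoter changed less than the strong opened region within the gene, 1.77-fold against 3.46-fold in the ratio of means. The opened region was chosen by its ratio and the promoter was not.

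Sequence was read only for the 10 largest called rises at coding genes within 50 kb, and smaller rises were not searched. Of these 10, the 250 bases before the RefSeq start of Nppb and 4930503B20Rik are shown. Both lie within 10 kb of an opened region and inside the risen region, and have a single RefSeq start there. Pigv, described below, also lies that near, but has a second RefSeq start upstream within its region and is not shown. Capitals mark the same motif letters as above.

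Nppb, plus strand, chr4:147985650-147985899: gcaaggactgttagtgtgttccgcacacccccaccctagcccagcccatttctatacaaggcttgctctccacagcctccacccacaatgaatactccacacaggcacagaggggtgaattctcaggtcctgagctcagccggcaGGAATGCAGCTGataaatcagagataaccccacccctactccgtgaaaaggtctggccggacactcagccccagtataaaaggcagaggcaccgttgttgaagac
4930503B20Rik, minus strand, chr3:146651315-146651564: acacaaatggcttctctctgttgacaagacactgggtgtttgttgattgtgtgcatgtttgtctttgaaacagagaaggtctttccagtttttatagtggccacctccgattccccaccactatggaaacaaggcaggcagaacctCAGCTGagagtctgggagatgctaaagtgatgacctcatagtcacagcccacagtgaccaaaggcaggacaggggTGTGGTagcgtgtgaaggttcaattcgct

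The Nppb stretch held the letters of TEAD, directly followed by those of the E-box, which 12.6% and 13.0% of all windows hold in the 250 bases before the start. The 4930503B20Rik stretch held the E-box letters and those of RUNX, which 14.0% of windows hold.

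The promoter of Sdcbp2, which encodes a syntenin (chr2:151571996-151572379), rose from 25, 24 and 26 to 56, 61 and 67 (log2 fold change 1.24, limma adjusted p = 1.19e-06), 7.03 kb from an opened region with 40, 52 and 42 against 131, 119 and 143. Pigv, an enzyme gene of GPI anchor synthesis, rose from 269, 262 and 231 to 412, 379 and 356 (0.62, limma adjusted p = 2.99e-08), 7.75 kb from an opened region within Arid1a, which encodes a subunit of a chromatin remodelling complex. An opened region at chr11:5528182-5528400, with 20, 9 and 13 against 54, 41 and 39, had a risen promoter on either side. That of Xbp1, a transcription factor of the unfolded protein response, lay 6.89 kb away and rose from 411, 411 and 384 to 535, 502 and 502 (0.37, limma adjusted p = 1.21e-05). On the other side, 13.2 kb away, a weak promoter region of Ccdc117 rose from 12, 9 and 9 to 27, 37 and 27 (1.53, limma adjusted p = 3.56e-05), while the strong region at the Ccdc117 start did not pass (0.08, limma adjusted p = 0.517). Smaller rises within 10 kb were at Pcdh1 (0.55), Gypc (0.37), S100a15a, a calcium-binding protein gene (0.34), and Psmd2, a proteasome subunit gene (0.31). Ccn1 (0.20) and Chac1, an enzyme gene of glutathione breakdown (0.18), rose as well. The coding promoter regions within 10 kb that fell were of Irgm1 (-0.58), Chek1 (-0.28), Cit (-0.24), Ssbp3 (-0.22), Lpcat4 (-0.22) and Kpna3 (-0.18).

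Of 271 protein-coding promoter regions within 50 kb of an opened region, 42 rose (15.5%) and 46 fell (17.0%), shares near the 12.9% and 18.3% of all 9954 coding promoter regions. Of the 53 promoter regions of other genes, 18 rose (34.0%) and 5 fell (9.43%), against 20.5% and 20.8% of all 1696, so the excess of rises over falls within 50 kb lay in these. Within 10 kb, 13 of 43 coding promoter regions rose (30.2%) and 6 fell (14.0%). The others of the 10 largest rises were at Zpld1 (36, 34 and 41 against 78, 89 and 81, limma adjusted p = 5.82e-07), Il24, a cytokine gene (log2 fold change 0.84), Adam18 (0.82), Ndufb10, a gene of respiratory complex I (0.64), and Ssbp3 (0.62). The 6 largest falls were at Smim11a (-1.75), Edil3, a gene of an integrin-binding matrix protein (-0.80), Mast2 (-0.62), Cldn9, a claudin gene (-0.59), Irgm1, a GTPase gene induced by interferon (-0.58), and Shroom4, which encodes an actin-binding protein (-0.53). Irgm1 fell from 95, 80 and 83 to 53, 65 and 53 (SE 0.157, limma adjusted p = 0.00274), 9.03 kb from an opened region with 13, 10 and 15 against 47, 41 and 43, so promoter and distal region moved in opposite directions there. Shroom4 fell from 464, 518 and 498 to 355, 323 and 351 (limma adjusted p = 4.99e-08), 18.7 kb from a region with 10, 11 and 14 against 48, 54 and 64. Without GFP guide replicate 3 the calls of Adam18, Ssbp3, Smim11a, Edil3, Mast2, Cldn9 and Irgm1 ended (limma adjusted p = 0.0568 to 0.333) in a fit with 1 GFP guide sample. Their log2 fold changes were then 0.78, 0.48, -2.04, -0.57, -0.48, -0.47 and -0.62, in the same order and direction. The calls also ended for Ssbp3 without Actg1 guide replicate 1 (limma adjusted p = 0.0669) and for Mast2 without Actg1 guide replicate 3 (limma adjusted p = 0.142). Stronger promoter regions of Smim11a, Irgm1, Edil3 and Mast2, nearer to the start, did not pass (0.10, -0.07, -0.23 and 0.00, limma adjusted p = 0.0845 to 0.989), and that of Ssbp3 with the higher signal was lower (-0.22, limma adjusted p = 0.048).

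Genes of the pathways listed for this cell system were near an opened region about as often as coding genes in general. Of 21631 protein-coding genes, 728 (3.37%) had one in the body or within 50 kb, and of 383 listed genes 16 (4.18%) did. The lists are not complete, and Irgm1, Vgll4 and Shroom4, named above, are in none of them. Neither are Cald1, Ssh1, Msn and Phactr1, which also held opened regions, so the counts below cover the listed genes only. Of 49 actin genes and actin regulators there were 2, Actg2 and Vil1, with the Vil1 region, 27.8 kb away, inside Slc11a1. Of 22 targets of SRF and its actin-sensed cofactor MRTF there were 0. Of 25 YAP/TEAD genes there were 2. The region 20.1 kb from Wwtr1, the gene of the coactivator TAZ (chr3:57435386-57435774), lay within Tm4sf4 and had 37, 29 and 36 against 111, 112 and 123. A weaker region, 5.73 kb from the matricellular gene Ccn1, had 11, 11 and 8 against 26, 35 and 38. The Ccn1 promoter rose from 643, 646 and 670 to 756, 746 and 759 (log2 fold change 0.20, SE 0.0525, limma adjusted p = 0.00223), and that of Wwtr1 did not pass (-0.04, limma adjusted p = 0.544). Near each of these genes lay 1 opened region.

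Of 35 Wnt pathway genes 3 had an opened region. Dkk2, an inhibitor of Wnt signalling, held the strongest, at chr3:132117785-132118241 with 38, 34 and 45 against 119, 139 and 107, and Wnt5b and Wnt2, which encode ligands, had regions with 14, 10 and 14 against 57, 58 and 44 and with 20, 17 and 14 against 52, 54 and 48. Of 40 matrix genes 2 did. Dcn, which encodes the proteoglycan decorin, had a pair 33.2 and 36.9 kb away, at 7, 9 and 12 against 28, 41 and 36 and at 34, 38 and 43 against 146, 118 and 119. The collagen gene Col12a1 held 1 region (27, 23 and 19 against 58, 82 and 70). The largest ratio among the listed genes was at Msx1, a homeobox gene, 5.59 kb from a region that went from 6, 3 and 9 to 41, 51 and 31 (log2 ratio 2.58), and Msx1 was the only 1 of the 49 homeobox genes of that list with an opened region in the body or within 50 kb. The list does not hold every homeobox gene: Hoxc13, given above, is not in it. The Msx1 promoter did not pass (-0.03, limma adjusted p = 0.80). Of the remaining lists, AP-1 factors had 1 of 15 (Atf2) and interferon and inflammation genes 2 of 31 (Nfkb1 and Oasl2). The region 31.8 kb from Nfkb1 lay within Manba. Skeletal muscle genes had 1 of 33 (Ryr1) and TGF-beta and BMP genes 1 of 35 (Id3). Axon guidance genes had 1 of 34 (Sema3e) and retinoid genes 0 of 18. The promoters of Dkk2, Col12a1, Atf2, Nfkb1, Oasl2, Id3 and Sema3e did not pass. Their log2 fold changes were -0.14 to 0.15 (limma adjusted p = 0.102 to 0.966).

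The opened region nearest to the targeted gene Actg1 lay 489 kb from it, at chr11:119856642-119856985 in Rptor, which encodes a subunit of the mTORC1 kinase complex. It was a weak member, with 20, 14 and 11 for the GFP guide and 40, 59 and 42 for the Actg1 guide. Actg2, the smooth muscle gamma-actin gene related to Actg1, had an opened region 34.0 kb away at chr6:83478743-83479077, with 23, 25 and 29 against 97, 100 and 108 (log2 ratio 1.94). Its nearest gene was Dguok. Among the actin genes of the list, Actg2 alone had an opened region in the body or within 50 kb.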

How the data were processed

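Per the labels, ATAC-seq libraries were made from 25000 cells each, with transposition for 30 min at 37 °C, and 3 libraries per group are called biological replicates. The labels do not say that they came from separate cultures, so the p-values here reflect library-to-library spread, which may be technical. The submitters' processing notes name mm10 as build and, without saying what each did, DESeq, DESeq2 1.36.0, featureCounts, Picard 3.0.0, STAR 2.7.10a and Trimmomatic 0.39. How peaks were called, Tn5 cuts shifted and values normalized is not given in the sources used here. One table was deposited, in which the authors give 1 signal value per region and library, which from its values is a read count scaled and rounded to whole numbers. Regions assigned to a gene lay at most 5988 bp from its start.

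The members, gene lists and tests were chosen with earlier results of these data known. Group means are of 3 libraries. Since the values are not raw counts, limma 3.58.1 (R 4.3.3, mean-variance trend, Benjamini-Hochberg adjustment) was fitted to log2(signal + 1) of the 61327 regions that reached a signal of 10 in 3 or more of the 6 libraries. That scale understates changes of low regions. GFP guide replicates 1 and 2 entered as their mean, so that group has n = 2. Reads were estimated from the uneven use of small whole numbers. Distances run between centres, or from centre to RefSeq gene bounds (GRCm38.p6). Regions named are the 10 strongest, the 5 widest, the 8 pairs and the 8 genes with most members, list genes and the region nearest each of Actg1 and Actg2. Promoters named are the 10 largest called rises and 6 largest called falls within 50 kb. Those of Xbp1, Psmd2, S100a15a, Chac1, Pcdh1, Gypc, Chek1, Cit, Lpcat4, Kpna3 and the nearest genes of strong regions were chosen after values were seen. The most uneven, remote and threshold members, the members of the fullest 5 Mb windows and the Hspb8 region were too. So were Cald1, Ssh1, Msn and Phactr1.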

Additional observations from a re-analysis of the deposited data

How the results depend on the processing

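The count of opened regions follows the limits of the rule: it was 1920 at a log2 ratio of at least 1, 94 at 2, 286 at an Actg1 guide mean of at least 50, 799 at 20 and 285 with 5 added to each mean. After cyclic loess scaling it was 422, of which 421 were among the 559. The median length was 315 bp at a log2 ratio of at least 1, 261 bp at a mean of at least 20 and 385.5 bp at 50. The share in a gene body was 35.1% at a log2 ratio of at least 2 and 51.7% with 10 kb on either side of the gene. The share with another opened region beside it was 15.1% at a log2 ratio of at least 1, 4.26% at 2 and 10.9% within 50 kb. The median log2 ratio of distal neighbours was 0.33 within 10 kb and 0.25 within 25 kb. Promoter calls near opened regions, higher and lower, were 34 and 28 of 158 within 25 kb. Within 100 kb they were 113 and 99 of 662. Over all promoter regions 14% were called higher and 18.7% lower. With a promoter window of 5 kb the calls were 153 and 104 of 634, where 17.8% and 18.3% of all such regions were called.

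Leaving out each library in turn gave 520 to 667 opened regions, median lengths of 297 to 308 bp, 41.2% to 43.8% in a gene body, 5.77% to 9.29% beside another one and median neighbour ratios of 0.33 to 0.41. It gave 7381 to 12490 regions called higher and 5412 to 12216 lower over the table, and 33 to 58 and 14 to 57 promoters near opened regions. The lowest counts of calls came without GFP guide replicate 3, which leaves 1 GFP guide sample, assumed to vary like the other group. With 6 separate libraries the calls over the table were 14071 and 14105, and with the replicate block 14322 and 14403 (67 and 64 promoters near opened regions, against 60 and 51). Deviations of same-numbered libraries correlated at 0.0252, 0.0138 and 0.0161, each the best match of its Actg1 guide library. Other pairings gave -0.0165 to -0.000345. These low values do not settle whether the numbers pair the libraries, and the main fit did not pair them. Depth limits the weakest members, whose GFP guide signal is about 10 reads or fewer. These alternatives do not bear on variation between cultures.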
